A study of Homo sapiens with 10 samples.

Results

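γH2AX was compared in irradiated K562 cells between 1 h and 24 h of recovery, using 4 of the 10 CUT&RUN libraries in the series, chosen by their labels. K562 is an established erythroleukaemia cell line. The cells received 6 Gy of ionizing radiation from a cobalt source and were then left to recover for 1 h (2 libraries, replicates 1 and 2) or for 24 h (2 libraries, replicates 1 and 2). No γH2AX library of unirradiated K562 was analysed here, so both groups had been irradiated. The comparison draws on 2 libraries of untreated K562 labelled H2AX and 1 library of the repressive mark H3K27me3 from K562 at 1 h after 6 Gy. The untreated libraries carry an antibody label that names histone H4, and they serve here as a chromatin background whichever histone was bound. The HepG2 liver carcinoma libraries (1 γH2AX library at 1 h after 6 Gy and 2 untreated H2AX libraries) also entered the fits. The 2 untreated HepG2 libraries help to estimate the spread between replicates there. The single HepG2 γH2AX library has its own group mean and adds no difference between replicates. Nothing in the labels ties the replicates to separate cultures, and the p-values then reflect only how far these libraries differ, possibly for technical reasons.

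H2AX is a variant of histone H2A built into nucleosomes along the genome. When a chromosome breaks, the kinases ATM, ATR and DNA-PK phosphorylate H2AX on its tail, and the resulting γH2AX spreads along the chromatin on either side of the break, where it holds MDC1 and other repair factors. The mark is then removed as breaks are repaired, by phosphatases and by exchange of the histone. CUT&RUN maps such a mark with an antibody that tethers a nuclease to it, so that the DNA beneath is released and sequenced. H3K27me3 is placed by Polycomb complexes over silent developmental genes and in broad silent domains.

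The 1 h libraries were the deeper ones. Mean depth per base was 1.44 and 1.78 at 1 h, 0.326 and 0.592 at 24 h, 0.672 and 0.671 in untreated H2AX, and 1.096 in H3K27me3. Depths fell on steps of 60 bp in both 1 h libraries and the H3K27me3 library and of 41 bp in the 24 h and H2AX libraries, so recovery time and read length cannot be told apart in the γH2AX comparison. Levels below are relative, the depth of a bin or window over the mean of its library. They show where the signal lies and not how much γH2AX a cell holds, and a loss of enrichment at 24 h cannot be told apart from a redistribution.

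The track of 24 h replicate 1 is not independent of the 1 h tracks. In the 933066 bins of 1 kb (33.3% of all bins) in which the 1 h libraries averaged above 1.642 reads per base, it reads exactly 0 in 100% of bins. Replicate 2 reads 0 in 0.316% of those bins. In the other 1865491 bins, called readable bins here, the shares of bins at 0 were 3.58% and 3.88% in the 24 h replicates. The blanked bins hold 62.8% and 67.1% of the signal of the 1 h libraries, 39.8% of that of 24 h replicate 2 and 41.9% and 41.5% of that of untreated H2AX. The peaks in the lists labelled 24 h lie wholly in blanked bins. Replicate 1 was therefore used only in readable bins, where every library was rescaled to its own mean, and replicate 2 alone stands for 24 h over all bins.

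Where both 24 h libraries could be read, they gave the same landscape. Over 19510 windows of 100 kb with at least 50 readable bins, Spearman's rho between the 24 h replicates was 0.939, and the SD of their log2 ratio was 0.118, close to the 0.115 of the untreated H2AX replicates. Over all bins, blanked ones included, rho between the 24 h replicates was 0.0416. The 1 h replicates differed more from each other in readable bins, with a rho of 0.691 and an SD of 0.365, while over all bins their rho was 0.948. Each 24 h library ranked the readable windows much as untreated H2AX did, with rho from 0.779 to 0.852 over the 4 pairs. Against 1 h replicate 1 the 24 h libraries had a rho of 0.542 and 0.558, and against 1 h replicate 2 of 0.0677 and 0.0875. The readable bins were cut on 1 h depth, which narrows the range of the 1 h libraries there. Over all bins 24 h replicate 2 had a rho of 0.556 and 0.405 with the 1 h replicates. Its rho with untreated H2AX was 0.770 and 0.835. These are correlations over windows, which are not independent of each other, and all libraries share the base composition of the genome. The 24 h and H2AX libraries also share the step of 41 bp, while the 1 h libraries have steps of 60 bp. Mappability is thus more alike between 24 h and H2AX than between 24 h and 1 h. Its part in these correlations was not tested.

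In the bins with the least 1 h depth, up to 0.1 reads per base, all libraries were low, with levels of 0.203 and 0.198 in the 24 h replicates and 0.214 and 0.208 in untreated H2AX. Above that class the 24 h level rose less with 1 h depth than the 1 h level did. From the class of bins with 0.1 to 0.2 reads per base at 1 h to the last readable class, 1.4 to 1.642, the level on the readable scale went from 0.183 to 1.72 in 1 h replicate 1 and from 0.184 to 1.88 in 1 h replicate 2. Over the same classes it went from 0.739 to 1.12 in 24 h replicate 1 and from 0.727 to 1.15 in 24 h replicate 2. The untreated H2AX libraries went from 0.780 to 1.07 and from 0.765 to 1.09. Above 3 reads per base, where only replicate 2 can be read, the 24 h level was 1.48, below the 1.84 and 1.75 of untreated H2AX on the same scale. The class boundaries were set on the 1 h libraries, so their own rise is fixed by the choice.

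**Figure D1:**
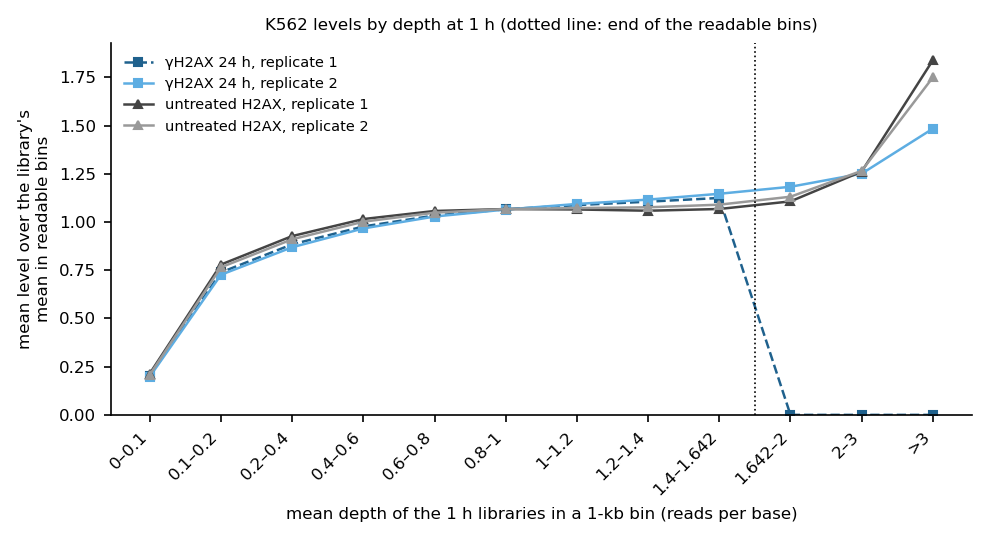
Mean level of each 24 h library (squares) and each untreated H2AX library (triangles) in 1-kb bins classed by the mean depth of the 1 h libraries, relative to the library's mean in readable bins. The 24 h replicates run together from 0.203 and 0.198 in the lowest class and 0.739 and 0.727 in the next to 1.12 and 1.15 at the dotted line, after which replicate 1 reads 0 and replicate 2 goes on to 1.48.

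Over all bins, the 1 h libraries and 24 h replicate 2 were called different in many windows. Of 27610 windows of 100 kb tested, 15821 (57.3%) differed between the 1 h libraries and 24 h replicate 2 at an adjusted p under 0.05 (limma with Benjamini-Hochberg adjustment). 5654 windows (20.5%) were higher at 1 h and 10167 (36.8%) were lower at 1 h. The difference was over 2-fold in 1724 of the higher and 4955 of the lower windows. The median log2 difference over all windows was -0.12, and 5% of windows lay below -1.28 and 5% above 1.06. With a single 24 h library, the test assumes that it varies like the groups that have 2 libraries. Those are the 1 h pair and the untreated H2AX pairs of K562 and HepG2. The SD of the log2 ratio was 0.315 in the 1 h pair and 0.108 in the K562 H2AX pair. The H2AX pair thus lowers the spread that γH2AX differences are held against, and the share of windows called depends on this pooling.

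The windows called higher at 1 h were rich in untreated H2AX signal and had less H3K27me3 than the windows tested as a whole. Their median level was 1.85 and 1.97 in the 1 h libraries, 1.09 in 24 h replicate 2, and 1.32 and 1.27 in untreated H2AX. H3K27me3 had a median of 0.186 there, against 0.382 over all windows tested and 0.0810 in the 11789 windows not called. Low H3K27me3 thus did not set the higher windows apart from those not called. In the windows lower at 1 h the 1 h libraries had medians of 0.562 and 0.400, with 1.01 in 24 h replicate 2, and 0.971 and 0.980 in untreated H2AX, with 1.54 for H3K27me3. The 24 h library thus lay near the genome mean in both classes, and below untreated H2AX in the median of the windows higher at 1 h. Those 24 h medians are a description, since the windows were called with that library.

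The high end is illustrated by 9 of 10 windows, taken as the largest differences among called windows with both 1 h libraries above 24 h replicate 2. Gene names beside positions are given as background from general knowledge of hg19. No hg19 annotation was used and no value was computed over a gene, while each name was listed on the stated chromosome in RefSeq. The largest difference was at chr17:27400001-27500000, which overlaps MYO18A, the gene of an unconventional myosin. There the 1 h libraries read 3.06 and 4.71, 24 h replicate 2 read 0.649, and untreated H2AX read 1.03 and 0.877. Both 1 h libraries were thus far above all 3 others, and the log2 difference was 2.46 (SE 0.23, adjusted p = 0.000536). The HepG2 γH2AX library at 1 h read 0.615 in the same window, against 0.834 and 0.775 in HepG2 H2AX.

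A second window on chromosome 17, at chr17:25800001-25900000, overlaps KSR1, which encodes a scaffold of RAS signalling. It read 2.55 and 3.44 at 1 h, 0.691 in 24 h replicate 2, and 1.09 and 1.07 in untreated H2AX, a log2 difference of 2.02. At chr7:2100001-2200000, within MAD1L1, a gene of the mitotic spindle checkpoint, the 1 h libraries read 2.43 and 3.90 against 0.814 in 24 h replicate 2, a log2 difference of 1.86. The windows at chr16:70700001-70800000 (VAC14), chr11:72400001-72500000 (ARAP1), chr17:35900001-36000000 (SYNRG), chr17:38400001-38500000 (RARA), chr3:52100001-52200000 (POC1A) and chr22:47000001-47100000 (GRAMD4) had log2 differences between 1.86 and 2.02 as well. RARA is the retinoic acid receptor of myeloid differentiation. Across the 10 windows 24 h replicate 2 lay between 0.516 and 0.873, and the lower of the 2 untreated H2AX values lay above it in each. The choice of windows by their difference favours a low value in 24 h replicate 2 and so this order. All windows called higher at 1 h had medians in the same order, 1.09 in 24 h replicate 2 and 1.32 and 1.27 in untreated H2AX. H3K27me3 was between 0.0489 and 0.129, and 0 to 7 of the 100 bins were readable in 24 h replicate 1, so only replicate 2 speaks for 24 h there.

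6 of the 10 windows at the low end lie on the long arm of chromosome 6. The largest difference was at chr6:138900001-139000000, where the 1 h libraries read 0.612 and 0.344, 24 h replicate 2 read 1.92, and untreated H2AX read 1.81 and 1.72. The 24 h value was close to untreated H2AX, and the 1 h values lay far below it, with a log2 difference of -1.95 (SE 0.25, adjusted p = 0.00059). Here 98 of 100 bins could be read in 24 h replicate 1, which gave 1.91 on the readable scale beside 2.14 in replicate 2 and 1.05 and 0.694 at 1 h. The window at chr6:107900001-108000000 overlaps SOBP and the window at chr6:111400001-111500000 overlaps SLC16A10, which encodes an aromatic amino acid transporter. Their log2 differences were -1.82 and -1.76, and H3K27me3 reached 4.57 and 4.11, the highest of the 10.

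At chr19:7100001-7200000, within INSR, which encodes the insulin receptor, the 1 h libraries read 0.391 and 0.268 and 24 h replicate 2 read 1.27, below the 1.78 and 1.69 of untreated H2AX. All 100 bins were readable, and on that scale the 24 h replicates read 1.41 and 1.4045, against 0.701 and 0.543 at 1 h. At chr8:133400001-133500000, within the potassium channel gene KCNQ3, the levels were 0.412 and 0.294 at 1 h and 1.29 in 24 h replicate 2. At chr8:121000001-121100000, which overlaps DEPTOR, an inhibitor of mTOR, they were 0.400 and 0.3001 against 1.26. The window at chr17:20400001-20500000 was low in every γH2AX library, with 0.0708 and 0.0600 at 1 h and 0.331 in 24 h replicate 2, beside 0.347 and 0.337 in untreated H2AX. H3K27me3, whose library shares the step length of the 1 h libraries, read 1.15 there. In all 10 low windows both 24 h libraries were above both 1 h libraries on the readable scale, and 97 to 100 bins were readable in each. The same order held in 42.0% of all readable windows tested. The choice of the 10 windows already required 24 h replicate 2 to lie above both 1 h libraries over all bins.

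**Figure D2:**
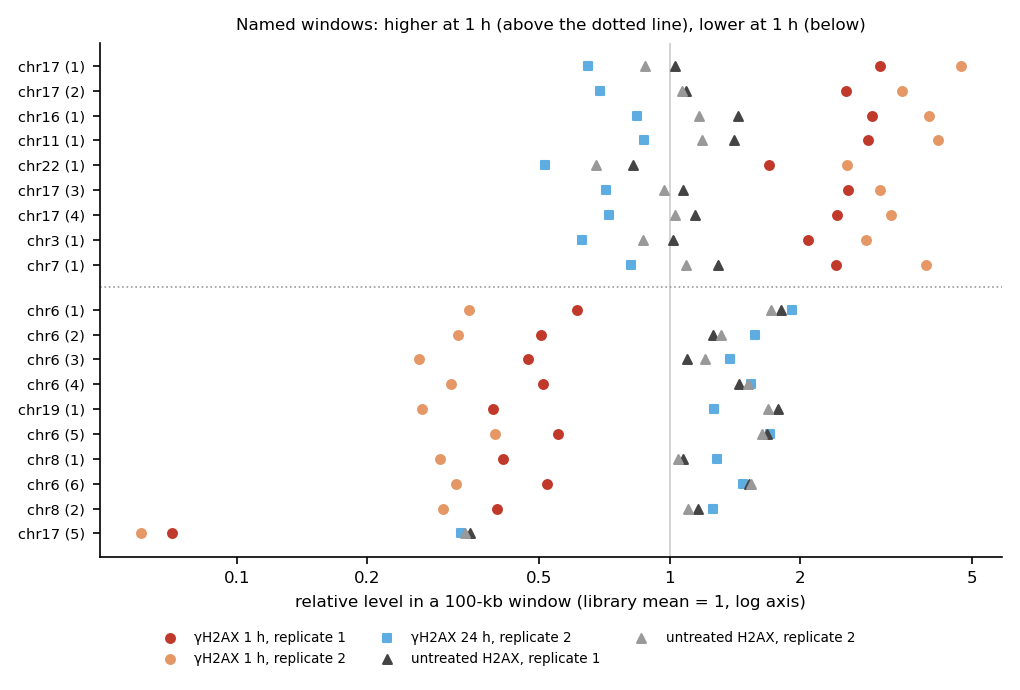
Relative level (log axis, library mean 1) of both 1 h libraries, 24 h replicate 2 and both untreated H2AX libraries in windows with the largest difference in each direction over all bins, numbered within each chromosome, 9 of 10 above and 10 below the dotted line. In the upper 9 the 1 h libraries lie at 1.69 to 4.71 and 24 h replicate 2 at 0.516 to 0.873. In the lower 10 the 1 h libraries lie at 0.0600 to 0.612 and 24 h replicate 2 at 0.331 to 1.92.

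In readable bins, where both 24 h libraries count, the differences were smaller and were called in a similar share of windows. Of 19510 windows tested, 12383 (63.5%) were called by limma. 6044 of them (31%) were higher at 1 h and 6339 (32.5%) were lower at 1 h. The split moved with the bins used, to 2486 higher and 5657 lower where at least 80 bins had to be readable, and to 2839 higher and 3914 lower with a lower depth limit of 1.2315. Only 19 of the higher and 29 of the lower windows differed by over 2-fold, and 5% of windows lay below a log2 difference of -0.65 and 5% above 0.68. With the spread taken from only the 4 libraries compared, a setting chosen after seeing the data, 6431 windows were called. In 80 of the 12383 windows called with all libraries the values at 1 h and at 24 h overlapped. The bins were chosen on 1 h depth, which sets part of the level of this difference. Leaving out 24 h replicate 1 left 6151 calls and leaving out replicate 2 left 6164, each of which leaves 24 h with 1 library.

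The most raised readable window was at chr9:27400001-27500000, within MOB3B. It read 1.23 and 1.45 at 1 h, 0.462 and 0.312 at 24 h, and 0.445 and 0.507 in untreated H2AX, a log2 difference of 1.69 (SE 0.17, adjusted p = 6.72e-06). The window lies in the part of chromosome 9 that K562 has lost in large part, described below, and 50 of its bins were readable. The next were chr3:87900001-88000000 with 1.00 and 1.19 at 1 h against 0.456 and 0.420 at 24 h, chr22:42900001-43000000 with 0.835 and 1.41 against 0.403 and 0.471, chr10:88900001-89000000 with 0.835 and 1.12 against 0.373 and 0.400, and chr2:241400001-241500000 with 1.12 and 1.31 against 0.549 and 0.468. The choice of windows required that the groups do not overlap. On the low side, chr6:138900001-139000000, chr6:114000001-114100000, chr17:20400001-20500000 and the INSR window were again among the 5 lowest. The fifth was chr10:47100001-47200000, with 0.312 and 0.281 at 1 h against 0.777 and 0.690 at 24 h, a log2 difference of -1.18.

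The share of windows called varied with how many of their bins were readable. Among windows with 50 to 59 and 60 to 69 readable bins, 48.9% and 55.3% were higher at 1 h and 9.26% and 7.34% lower, with median log2 differences of 0.33 and 0.38. With 90 to 100 readable bins, 19.4% were higher and 50.8% lower, with a median of -0.32. In the windows called higher at 1 h in readable bins, the untreated H2AX medians were 0.718 and 0.771, below the 0.918 and 0.935 of all readable windows tested, and H3K27me3 was nearly absent with a median of 0.0375. The 1 h medians were 1.11 and 1.43 there and the 24 h medians 0.862 and 0.856. The medians of both 24 h libraries lay between those of untreated H2AX and of the 1 h libraries. Their place below the 1 h medians follows from the call, which was made with these libraries. In the readable windows lower at 1 h the medians were 0.923 and 0.705 at 1 h, 1.16 and 1.16 at 24 h, and 1.201 and 1.19 in untreated H2AX.

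How far the 24 h libraries followed the 1 h pattern was described by the slope of log2(24 h over one H2AX replicate) on log2(1 h over the other H2AX replicate), with a different control library on each side. In readable bins the slope was 0.247 and 0.363 for 24 h replicate 1, with the H2AX replicates used either way round, and 0.253 and 0.368 for 24 h replicate 2. Both 24 h libraries gave a positive slope on 22 or 23 of 23 chromosomes. Over all bins the slope for replicate 2 was 0.0586 and 0.0456, and it was positive on 17 and 15 of 23 chromosomes. For comparison, 1 h replicate 2 on 1 h replicate 1 had slopes of 1.34 to 1.68. Untreated H2AX replicates share most of their own pattern (rho 0.979 over all bins), which enters both sides of the slope, so the values are a description.

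Chromosomes differed in how much of them was raised at 1 h. On chromosome 22, 44.6% of windows were higher at 1 h than in 24 h replicate 2, on chromosome 17 it was 43.2% and on chromosome 19 it was 33.8%. The lowest shares were 9.36% on chromosome X, 11.4% on chromosome 4, 11.9% on chromosome 18 and 12.5% on chromosome 13. Gene density was 13.6 protein-coding genes per covered Mb on chromosome 22, 15.3 on 17 and 26.2 on 19, against 5.66 on X, 4.13 on 4, 3.66 on 18 and 3.68 on 13. The densest chromosome, 19, thus had a lower share than 22 and 17, and X had the lowest share without the lowest density. Over the 23 chromosomes Spearman's rho between gene density and the share higher at 1 h was 0.904, and Pearson's r was 0.755, or 0.929 without chromosome 19. Gene density had a rho of -0.158 with the share lower at 1 h, which ran from 30.4% on chromosome 22 to 49.1% on chromosome 20. Gene counts come from the RefSeq annotation of GRCh38.p14 and covered lengths from the hg19 tracks. The chromosomes share the same libraries, so no test is attached. In readable bins the order was another, with 53.2% of windows higher at 1 h on chromosome 13, 52.9% on X and 9.97% on 19.

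**Figure D3:**
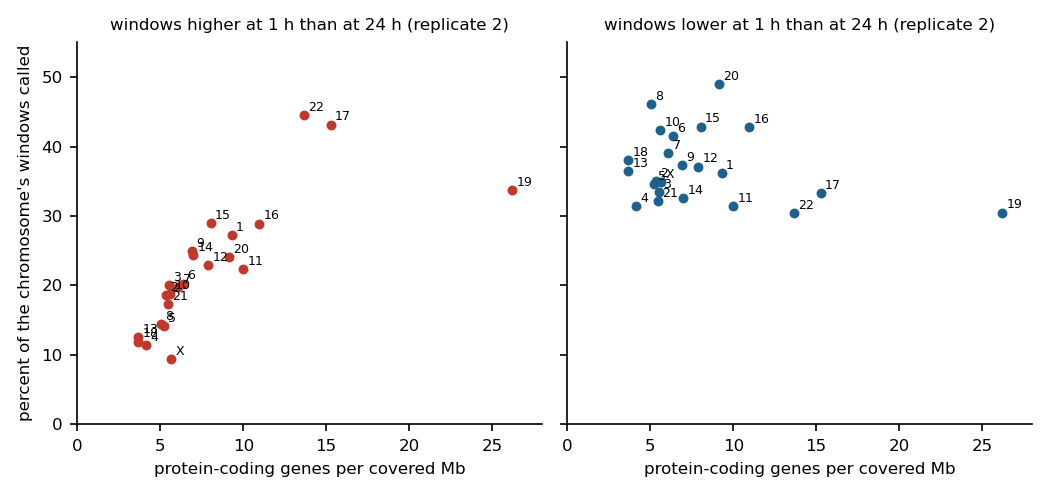
Percent of the 100-kb windows of each chromosome (points, numbered) called higher at 1 h (left) or lower at 1 h (right) than 24 h replicate 2, against protein-coding genes per covered Mb. The share higher lies between 9.36% (X) and 44.6% (22), with chromosome 19 at 33.8%, and the share lower lies between 30.4% and 49.1%.

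Called windows came in runs along the chromosomes. The 5654 windows higher at 1 h formed 2246 runs of adjacent windows, of which 962 were single windows and 49 were 1000 kb or longer. The 10167 lower windows formed 2900 runs, of which 170 reached that length, and 23.1% of lower windows lay in such runs against 10.9% of higher ones. The longest higher run covered chr1:26100001-29100000, which holds ARID1A, a subunit of a chromatin remodelling complex. It read 2.56 and 3.09 at 1 h, 1.41 in 24 h replicate 2 and 1.93 and 1.804 in untreated H2AX. Only 10.3% of its bins were readable, and there the values overlapped, with 1.416 and 1.365 at 1 h and 1.385 and 1.325 at 24 h. The next longest were chr17:78500001-81000000, with RPTOR of the mTOR complex and the actin gene ACTG1, at 1.78 and 2.37 against 0.850, and chr3:48400001-50400000, at 1.301 and 1.58 against 0.665. The region chr1:149800001-151500000, with the survival gene MCL1, read 1.96 and 2.29 against 1.095. These last runs on chromosomes 17, 3 and 1 were readable in 21.7%, 36.05% and 14.94% of bins. In those bins both 1 h libraries were above both 24 h libraries in each run. Readable bins leave out the highest 1 h depths, so most of each higher run rests on 24 h replicate 2 alone.

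The longest lower run, chr7:66800001-72000000, spans 5200 kb with AUTS2, a gene of neuronal development, and CALN1, expressed in brain. It read 0.642 and 0.459 at 1 h, 1.21 in 24 h replicate 2 and 1.21 and 1.18 in untreated H2AX. Of its bins, 94.9% were readable, and on that scale the 24 h replicates read 1.35 and 1.33, against 1.08 and 0.861 at 1 h. The run chr16:5200001-7900000 contains RBFOX1, a neuronal splicing factor, and read 0.451 and 0.298 at 1 h, 0.964 in 24 h replicate 2 and 0.992 and 0.974 in untreated H2AX. The run chr16:77000001-79800000 holds WWOX, a long gene at a common fragile site, and the transcription factor gene MAF, and read 0.607 and 0.395 against 1.12. At chr20:57600001-60500000, which includes the cadherin gene CDH4, the levels were 0.449 and 0.325 against 0.881, and at chr13:42900001-45500000, with ENOX1, they were 0.368 and 0.249 against 0.713. In these 5 runs both 24 h libraries, read separately in 94.9% to 99.6% of bins, were above both 1 h libraries. The runs consist of windows called lower at 1 h than 24 h replicate 2, which favours that order for replicate 2. Of all readable windows tested, 42.0% had both 24 h libraries above both 1 h libraries.

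The log2 ratio of 1 h to 24 h spread most widely at small scale, where replicates also differed most from each other. A spread remained in wide windows. The SD over windows of the log2 ratio of 1 h to 24 h replicate 2 was 1.297 in 1-kb bins, 0.712 in 100-kb windows and 0.448 in windows of 1000 kb. The corresponding SD between the 1 h replicates went from 1.104 to 0.315 and 0.206, and came closest to that of 1 h to 24 h at 1 kb. Between untreated H2AX replicates it went from 0.783 to 0.108 and 0.0768. At 1 kb, sampling of few reads makes up more of each value than in wider windows.

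The difference between 1 h and 24 h varied with H3K27me3 over untreated H2AX. Windows were ranked by H3K27me3 over untreated H2AX and divided into 10 classes of equal size (deciles). In the decile with the least H3K27me3 the medians at 1 h reached 1.47 and 1.59, beside 1.17 in 24 h replicate 2, and 1.08 and 1.11 in untreated H2AX. There 49.8% of windows were higher at 1 h and 4.17% lower, with a median log2 difference of 0.36. In the decile with the most H3K27me3 the 1 h libraries had medians of 0.537 and 0.371, with 0.955 in 24 h replicate 2, and 1.11 and 1.07 in untreated H2AX. Here 88.5% of windows were lower at 1 h and 1.45% higher, with a median log2 difference of -1.02. From the sixth decile on, every step to more H3K27me3 had a lower 1 h level in both libraries, while 24 h replicate 2 stayed between 0.955 and 1.04. Ranked by H3K27me3 alone, the lowest decile had a median of -0.014 and the highest a median of -0.996. In that ranking 2.54% of windows were higher at 1 h in the lowest decile, against 49.3% in the fourth.

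Readable bins gave the same direction with both 24 h libraries. In the lowest decile of H3K27me3 the median levels were 1.18 and 1.61 at 1 h and 0.996 and 1.01 at 24 h, and 75.6% of windows were higher at 1 h and 0% lower. In the highest decile they were 0.932 and 0.734 at 1 h and 1.07 and 1.05 at 24 h, with 57.2% lower and 1.03% higher. The median log2 differences were 0.44 and -0.35. The 24 h replicates followed each other in every decile, crossing from above untreated H2AX (0.776 and 0.842) in the lowest decile to below it (1.302 and 1.23) in the highest. The H3K27me3 library is a single library made at 1 h with the step length of the 1 h γH2AX libraries, and H3K27me3 at 24 h was not analysed here.

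**Figure D4:**
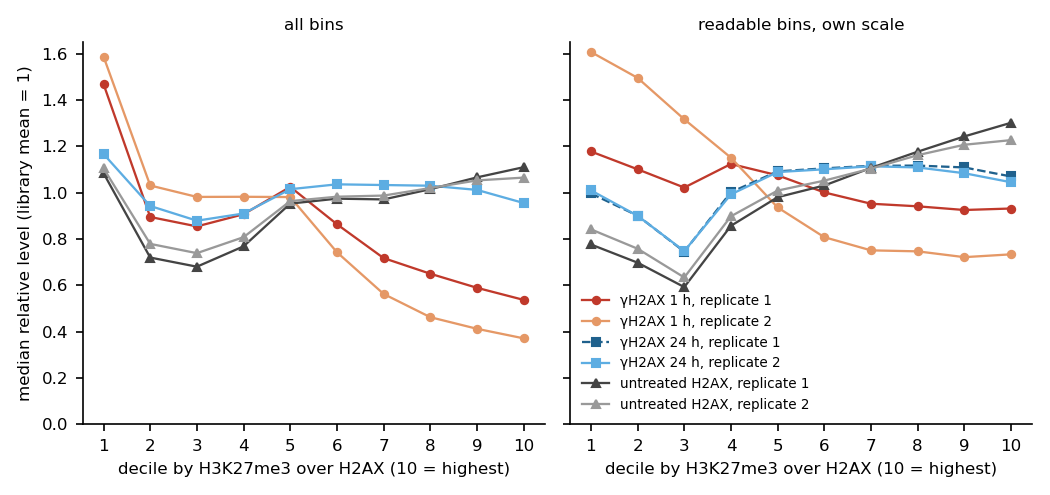
Median relative level of each γH2AX library (circles at 1 h, squares at 24 h, replicate 1 of 24 h in the right panel only) and untreated H2AX library (triangles) in deciles of windows by H3K27me3 over H2AX, over all bins (left) and in readable bins on their own scale (right). Over all bins the 1 h libraries go from 1.47 and 1.59 down to 0.537 and 0.371 and 24 h replicate 2 from 1.17 to 0.955, and on the right the 24 h replicates overlie each other.

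Windows near chromosome ends were split in direction. Within 2 Mb of the first or last covered base, 38.7% of 835 windows were higher at 1 h and 34.0% lower, with a median log2 difference of 0.09, against 20.5% and 36.8% over all windows tested. Between 2 and 5 Mb from an end 25.4% were higher and 49.7% lower, with a median of -0.39. Farther than 20 Mb from an end 19% were higher and 34.6% lower, with a median of -0.11. H3K27me3 medians in these classes were 0.940, 1.22 and 0.295.

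The known copy number changes of K562 were present in the untreated libraries and set apart some regions. In 81 windows the K562 H2AX level reached at least 3 times that of HepG2, 8 of them on chromosome 9 from 130900001 to 134200000, 30 on chromosome 13 and 43 on chromosome 22 from 17000001 to 23700000. The chromosome 9 and 22 groups contain ABL1 and BCR, the partners of the fusion gene that K562 carries in many copies. Conversely, 88 windows between 20800001 and 31500001 on chromosome 9, the part with the tumour suppressor gene CDKN2A, and 2 on chromosome 10 were below 0.05 of the library mean in K562 H2AX and at least 0.25 in HepG2 H2AX. Within the 81 amplified windows 25 were higher at 1 h and 41 lower, against 20.5% higher and 36.8% lower over all windows tested. The amplified windows of chromosome 9 had median levels of 5.11 and 6.38 at 1 h, 7.93 in 24 h replicate 2 and 9.61 and 8.83 in untreated H2AX, with 6 of 8 called higher at 1 h. On chromosome 13 none of the 30 was called higher and 23 were lower, with medians of 3.90 and 4.34 at 1 h against 5.40 in 24 h replicate 2. Medians of levels and the median of the difference, 0.57 on chromosome 9, are taken over windows separately and need not have the same sign.

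The peaks found at 1 h had little counterpart in 24 h replicate 2. The authors' lists hold 41947 and 46072 peaks at 1 h, which share 21578 merged regions with a median width of 2315 bp. In the 21561 regions that have comparable flanking bins 5 to 20 kb away and outside 1 h peaks, the mean level was 3.41 and 3.84 at 1 h against 1.98 and 2.15 in the flanks, local folds of 1.72 and 1.79. In 24 h replicate 2 the mean level was 1.33 against 1.22, a local fold of 1.09. Untreated H2AX had local folds of 1.13 and 1.11, close to the value of 24 h replicate 2. In the 293 regions from peaks with the caller's q under 0.05 the order of these values turned, with 1.128 in 24 h replicate 2 and 1.117 in untreated H2AX. Single regions lay above their flank in 98.2% and 98.8% of cases at 1 h, in 59.5% in 24 h replicate 2 and in 70.8% and 67.7% in untreated H2AX. Since the 1 h libraries defined the regions, their own values describe the choice. 24 h replicate 1 is blank in 99.9% of these regions over their whole width.

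Width mattered little at 24 h. In regions of 5 kb or wider the local fold was 1.77 and 1.98 at 1 h and 1.08 in 24 h replicate 2, and in regions under 1 kb it was 1.79 and 1.75 at 1 h and 1.12 in 24 h replicate 2. H3K27me3 was depleted in the regions, with a local fold of 0.314. Around the centres, the 1 h signal formed a sharp summit of 3.69 and 4.16 on a broad shoulder, which read 2.57 and 2.90 at 10 kb on the right and 2.03 and 2.20 at 50 kb. In 24 h replicate 2 the level was 1.35 at the centre, 1.26 at 10 kb and 1.24 at 50 kb. Untreated H2AX ran from 1.74 and 1.64 to 1.502 and 1.44. The shoulder of the 1 h libraries therefore had no counterpart of like size in 24 h replicate 2 or in untreated H2AX. This profile keeps the bins of neighbouring 1 h peaks. Bins 5 to 20 kb away and outside 1 h peaks averaged 1.98 and 2.15 at 1 h, below the profile at 10 kb. The shoulder thus includes signal of neighbouring peaks, and spreading around single peaks was not tested.

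**Figure D5:**
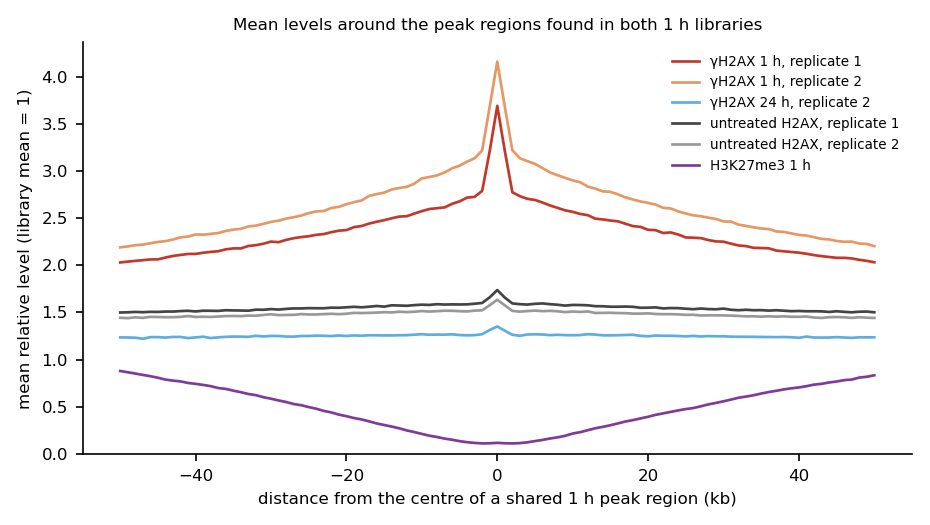
Mean relative level (library mean 1) by distance in kb from the centre of the 21578 peak regions shared by both 1 h libraries, 1 line per library. The 1 h libraries fall from 3.69 and 4.16 to 2.03 and 2.20 at 50 kb, 24 h replicate 2 goes from 1.35 to 1.24, and H3K27me3 rises from 0.119 to 0.835.

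The widest shared region, chr22:23570789-23632698, is 61.9 kb long and lies within BCR in the amplified part of chromosome 22. It read 20.5 and 25.7 at 1 h, 7.82 in 24 h replicate 2 and 11.3 and 9.46 in untreated H2AX. The flanks read 1.804 and 2.56 at 1 h and 1.09 in 24 h replicate 2, so the 24 h level was also high over the region, but below untreated H2AX. At chr22:21144027-21192904, within PI4KA, a phosphatidylinositol kinase gene, the 1 h libraries read 11.8 and 15.1, beside 4.61 in 24 h replicate 2 and 7.66 and 7.001 in untreated H2AX. At chr22:19025469-19063047, over DGCR2, they were 10.3 and 13.5, 4.90, and 6.98 and 6.36, and at chr9:134078731-134112012, which overlaps the nucleoporin gene NUP214, they were 13.03 and 15.2, 6.59, and 7.92 and 7.57. The widest region outside amplified windows, chr7:127698568-127734429 at the end of SND1, read 4.28 and 6.57 at 1 h and 1.43 in 24 h replicate 2, beside 2.27 and 2.03 in untreated H2AX. In all 5 regions both 1 h libraries were above untreated H2AX and 24 h replicate 2 was below it. Means over the 21561 shared regions with flanks had this order too, so it does not set the widest regions apart. Untreated H2AX averaged 1.69 and 1.60 across them, between the 1 h means (3.41, 3.84) and the lower 24 h mean (1.33, replicate 2). All these regions were chosen as 1 h peaks, which favours high 1 h levels.

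The 5 regions with the highest fold from the caller were modest in level. Levels are means over the whole 1-kb bins that a region touches, so those of narrow regions take in sequence beside them. The region on chromosome 15 is 346 bp wide and touches 1 bin. Regions were ranked by the lower of their 2 folds. At the first, chr3:101323527-101324516, the 1 h libraries read 1.52 and 1.85 against flanks of 1.503 and 1.38. At chr2:88862108-88863308 they read 3.26 and 3.66 against flanks of 1.23 and 0.923, while 24 h replicate 2 read 0.958 against 0.856. At chr15:101132508-101132853 they read 3.04 and 3.06 with 1.76 in 24 h replicate 2, and untreated H2AX read 1.68 and 1.397. At chr12:48465673-48467324 the levels were 2.59 and 2.97, with 1.58 in 24 h replicate 2, and at chr11:111814979-111817869 they were 2.24 and 2.49, with 1.15. The fold of the caller is the authors' value and ranked regions differently from the level over the flank.

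The peak lists labelled 24 h hold 8 peaks for replicate 1 and 13 for replicate 2, and at these peaks 24 h replicate 2 was below both the 1 h mean and the untreated H2AX mean. All 21 peaks lie in blanked bins, so the track of 24 h replicate 1 reads 0 at each of its own 8 peaks. At the 13 peaks of the replicate 2 list the level of 24 h replicate 2 ran from 0.277 to 10.3 and was below the mean of untreated H2AX at all 13. It exceeded its flank in 6 of the 9 that have one. The 1 h libraries read 5.66 to 29.1 and 9.38 to 40.2 at the same peaks and exceeded their flanks in 9 of 9 each, and the 1 h mean was 2.12 to 27.1 times the level in 24 h replicate 2. At the 8 peaks of the replicate 1 list 24 h replicate 2 read 0.900 to 14.4 and exceeded its flank in 7 of 8, and the 1 h mean was 2.06 to 7.02 times the level in 24 h replicate 2.

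At the least covered peak, starting at 22645284 on chromosome 22, the deposited track of 24 h replicate 2 holds a mean depth of 0.164, equal to 4 reads of 41 bp in the bin, although the list gives −log10 p as 10.0. The depth of 1 h replicate 2 there is 16.7. 1 h replicate 2 exceeded 1 h replicate 1 at 13 of 13 peaks of the replicate 2 list and at 2 of 8 peaks of the replicate 1 list, against 80.4% of 148 shared 1 h regions in amplified windows. Whether the lists were made from the libraries they are labelled with was not tested. 19 of the 21 peaks lie in amplified windows, over genes such as BCR, MED15, ABL1 and NUP214. Of the other 2, the first is at chr12:58217045-58217338, at the phosphatase gene CTDSP2, with 11.7 and 12.4 at 1 h and 1.72 in 24 h replicate 2. The second is at chr7:132671380-132671673, within CHCHD3, which encodes a mitochondrial protein, with 6.44 and 3.90 against 0.900.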

How the data were processed

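The members, windows and lists were chosen with earlier results of these data known. The deposited signal tracks hold coverage as mean depth per base in 1-kb bins of hg19, not scaled to depth. The tools named, per the submitters' processing notes, are BWA 0.7.12, SAMtools and MACS2, without roles or settings. The deposited peak lists give a fold (ratio) and −log10 p and q per peak; which control the caller used is not stated.

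Depths were divided by library means without chromosome Y and averaged in 100-kb windows with at least 50 bins. Windows with untreated H2AX of at least 0.25 in each line were tested on log2(level + 0.05), which understates changes near 0, with limma 3.58.1 (R 4.3.3, mean-variance trend, Benjamini-Hochberg). The fit over all bins used 9 libraries and that in readable bins all 10, with 6 group means, 3 and 4 residual degrees of freedom. The code was tested on simulated data. Named windows are the largest called differences at least 1 Mb apart with groups that do not overlap; 1 is not reported here. Shared peak regions overlap by at least 1 bp. The planned gene test and gene lists were not run, because the RefSeq table used here is of GRCh38.p14; 36 of 36 gene names were listed on their chromosome. No sequence of the regions was used here. Depth limits precision, and tracks carry no molecule counts. Python 3.11.15, numpy 2.4.6, pandas 2.3.3 and scipy 1.17.1 were used.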

Additional observations from a re-analysis of the deposited data

How the results depend on the processing

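Over all bins, other pseudocounts, scaling, filter or libraries sharing the spread gave 14825 to 16022 calls, 24 h replicate 1 included in every bin gave 12989 (3133 higher, 9856 lower), and windows of 50 and 500 kb gave 31385 and 2963. Leaving out single libraries gave 14359 to 19556; no value is possible without 24 h replicate 2. In readable bins 12383 calls became 6753 with a depth limit of 1.2315 instead of 1.642, 8143 with at least 80 bins and 6431 with only the 4 libraries compared, a setting chosen after seeing the data. Leaving out single libraries gave 6151 to 16964 calls there, lowest without 24 h replicate 1 (6151) or replicate 2 (6164); fewer samples or windows entered each of these fits. Median-of-ratios scaling moved the readable median from -0.06 to 0.07, with 6848 windows higher and 4824 lower.

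With a replicate block the calls were 15479 over all bins and 13024 in readable bins. The labels do not say that equal numbers share a culture, and the deviations of 1 h and 24 h libraries with the same number had a correlation of 0.00. For the other groups it was 0.43 (1 h with K562 H2AX), 0.23 (K562 with HepG2 H2AX), 0.20 (1 h with HepG2 H2AX), 0.0546 and 0.0484 (24 h with each H2AX group), so not every pair passed 0.1 and the numbers are not taken as pairs.

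All 30 named window values kept their direction and call in the 360 alternative values. Not every window had a value in each setting. With at least 80 bins, 4 of the 10 readable windows were tested and no raised one, since the 5 raised windows had 50 to 72 readable bins. With the depth limit of 1.2315, 6 were tested, of the raised windows only those on chromosomes 3 and 10. Using 24 h replicate 1 in every bin adds its blanked bins as 0. The largest difference over all bins then went from 2.46 to 4.13. The local fold of 24 h replicate 2 was 1.128 with the caller's q under 0.05 against 1.094 (untreated H2AX 1.117 against 1.124), and the lowest H3K27me3 decile over all bins was -0.014 when ranked by H3K27me3 alone against 0.36. The cause was not tested. The gene test and its alternatives were not run. Blank bins limit 24 h replicate 1 to 66.7% of bins, where its mean depth was 0.489 against 0.535 in replicate 2.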
